A study of Homo sapiens with 4 samples.

Results

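The 7 genes described here are PARP1, PARP2, PARP9, PARP10, PARP12 and PARP14 of the poly(ADP-ribose) polymerase family, and DTX3L, the ubiquitin ligase partner of PARP9. They were taken by symbol from a table of 56620 gene symbols, and 5 of them (PARP9, PARP10, PARP12, PARP14 and DTX3L), which are known interferon-stimulated genes, were set against the 2 DNA repair enzymes PARP1 and PARP2. RNA was sequenced from a clonal derivative of BJ-5ta, a human foreskin fibroblast line immortalised with telomerase, in which doxycycline switches on a FOXA2 transgene. The labels give 2 samples without doxycycline (uninduced) and 2 samples with 0.5 µg/ml doxycycline (induced). All were grown with hygromycin B, puromycin and basic fibroblast growth factor, and the labels also describe an overnight mimosine arrest in G1 without saying which cultures received it. No doxycycline-treated cells without the transgene were analysed here, so the drug and FOXA2 cannot be told apart. The duration of induction is not given in the labels.

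Enzymes of the PARP family take ADP-ribose from NAD and attach it to proteins or nucleic acids. PARP1 and PARP2 bind broken DNA and build poly(ADP-ribose) chains that recruit repair proteins. PARP10, PARP12 and PARP14 transfer single ADP-ribose units. PARP9 binds ADP-ribose through its macrodomains and works with DTX3L, which attaches ubiquitin. Several of these genes are transcribed in response to interferon through STAT and IRF factors.

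Expression is given as FPKM (fragment abundance corrected for transcript length and sequencing depth), in 1 column per group with a deposited lower and upper confidence bound. Without values per sample there is no replicate check, no p-value and no SD. The words rose and fell are used only where the intervals of the 2 columns do not overlap. This is a strict criterion on wide intervals, and an overlap does not show that a gene stayed the same. In the text, the range after an FPKM value is that interval. The number of reads is unknown. The labelled cell type was checked against 8 fibroblast markers, all of which were expressed in both columns. Of 6 leukocyte markers 2 reached 1 FPKM in a column (PTPRC at 0.547 and 1.30 FPKM, CD14 at 0.823 and 2.15 FPKM), CD3E was listed at 0 in both, and the 6 summed to 1.39 and 3.61 FPKM. None of 4 endothelial and 4 epithelial markers did, with sums of 0.0456 and 0.0579 FPKM and of 0.112 and 0.410 FPKM. The endothelial marker PECAM1 was read from a row on a patch sequence, at 0 in both columns, which may not reflect its expression. The part of such other cell types in the differences described here was not tested. FOXA2 itself was at 4.82 FPKM uninduced (0.526 to 9.12) and 104 FPKM induced (50.2 to 158). The question here is how the interferon-linked PARP genes and the repair PARP genes stood in fibroblasts with and without induction.

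The interferon-linked members were all higher in the induced column, by 7.91-fold to 17.4-fold, and 3 of the 5 rose: PARP12, PARP14 and DTX3L. Of all 14319 rows kept at 1 FPKM or more in either column, 0.726% rose. PARP1 and PARP2 had lower values in the induced column, with overlapping intervals, and 0 of the 2 fell, beside 0.454% of all rows. The median difference in log2(FPKM + 1), induced minus uninduced, was 2.92 for the interferon-linked members and -0.58 for the repair members, 3.50 apart. Adding 1 FPKM before taking logarithms makes the difference of low genes look smaller than the ratio. The median over all kept rows was 0.05. All 5 interferon-linked members differed by at least 2-fold upwards on that scale, as did 9.20% of all rows. The difference between the 2 classes was not tested, since there is 1 value per group.

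PARP14, a large macrodomain-containing enzyme that modifies proteins with single ADP-ribose units, was at 9.68 FPKM uninduced (0.956 to 18.4) and 79.7 FPKM induced (29.6 to 129.9). Its induced lower bound lay above its uninduced upper bound by a factor of 1.61, the widest gap among the 3 members that rose. The log2 difference was 2.92. PARP14 (ENSG00000173193) lies on chromosome 3, 122399465 to 122449687, in hg19.

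DTX3L, the ubiquitin ligase of the pair, was at 9.58 FPKM uninduced (2.63 to 16.5) and 75.8 FPKM induced (19.4 to 132). It rose, with a log2 difference of 2.86 and a factor of 1.17 between the nearest bounds. PARP9, its partner, was at 9.26 FPKM uninduced (0 to 19.1) and 116 FPKM induced (12.1 to 219). The PARP9 ratio of 12.5 was larger than the DTX3L ratio of 7.91, but the PARP9 intervals overlapped between 12.1 and 19.1 FPKM. A looser criterion asks that 0 lie outside the interval of the difference. PARP9 met it, with a difference of 106 FPKM and an interval of 2.41 to 210.4. By it 4 of the 5 members were higher, beside 1.26% of all rows. DTX3L (ENSG00000163840) and PARP9 (ENSG00000138496) carry the same span in the table, chromosome 3, 122246771 to 122294050. How fragments were assigned between them is not stated. PARP9 stood at 0.967 times DTX3L uninduced and 1.53 times DTX3L induced, differences that lie inside the intervals of both genes.

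PARP12, a zinc finger PARP with antiviral activity, was at 5.31 FPKM uninduced (0 to 11.3) and 45.2 FPKM induced (13.1 to 77.3). It rose, with a log2 difference of 2.87, and had the lowest induced level of the interferon-linked members. Its row (ENSG00000059378) is on chromosome 7, 139723544 to 139763521. PARP10, which transfers single ADP-ribose units, was at 4.79 FPKM uninduced (0 to 18.5) and 83.5 FPKM induced (0 to 175). This was the highest ratio of the 7 genes, 17.4, with a log2 difference of 3.87, but both lower bounds were 0 and the gene did not pass either criterion. The PARP10 interval was the widest of the members in relation to its value, with the upper bound 287% above the FPKM uninduced and 110% above it induced. The row of PARP10 (ENSG00000178685, chromosome 8, 145051321 to 145101933) shares its span with GRINA, a highly expressed membrane protein gene at 137 and 275 FPKM. The symbol also has a second row on a patch sequence, at 0 in both columns, so the 7 genes take 8 rows.

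PARP1, the most abundant of the DNA damage-activated PARPs, was at 62.2 FPKM uninduced (22.1 to 102) and 31.4 FPKM induced (11.1 to 51.8), 1.98 times lower with overlapping intervals. Its log2 difference of -0.96 had 6.47% of kept rows below it. PARP2, its close relative in single-strand break repair, was at 26.5 FPKM (7.09 to 46.0) and 22.8 FPKM (5.51 to 40.2), a log2 difference of -0.21. Neither passed the looser criterion, by which 1.11% of all rows were lower: the interval of the difference was -75.7 to 14.2 FPKM for PARP1 and -29.7 to 22.4 FPKM for PARP2. PARP1 (ENSG00000143799) lies on chromosome 1, 226548392 to 226595780. PARP2 (ENSG00000129484) lies on chromosome 14, 20811207 to 20826064, and shares its span with RPPH1, the RNase P RNA gene.

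**Figure D1:**
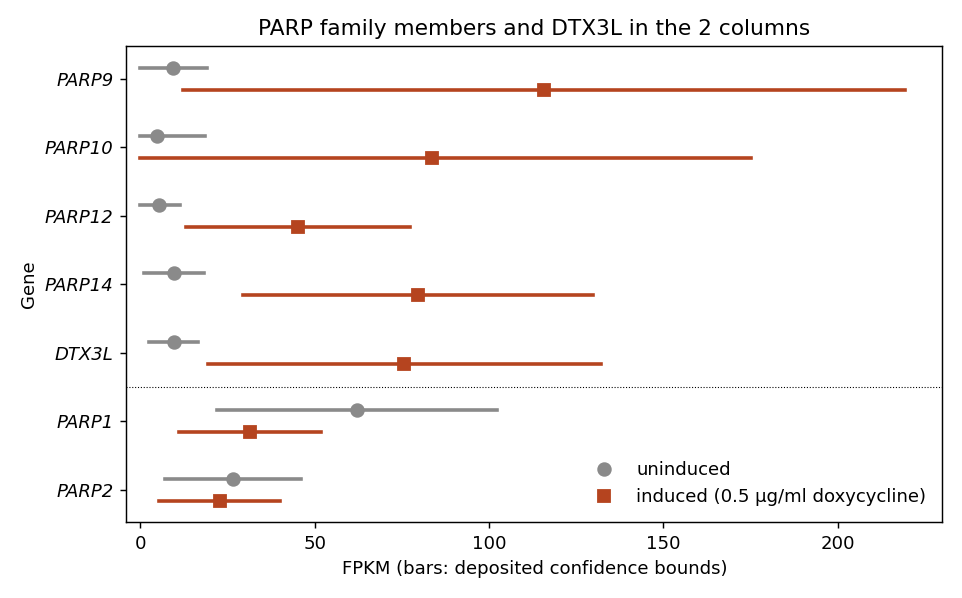
FPKM of the 7 genes in the uninduced (grey circles) and induced (red squares) columns, with bars for the deposited confidence bounds and a dotted line between the interferon-linked and the repair genes. The bars of PARP12, PARP14 and DTX3L do not overlap, while PARP1 and PARP2 have lower induced values (31.4 and 22.8 FPKM) with overlapping bars.

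By value, the repair members came first in the uninduced column and last in the induced column. FPKM is scaled to transcript length, and levels of different genes are set side by side here only as a description. PARP9, DTX3L, PARP10 and PARP2 share their spans with other genes, and how fragments were assigned there is not stated. Uninduced, PARP1 was highest, then PARP2, PARP14, DTX3L, PARP9, PARP12 and PARP10. PARP1 lay above each of the 5 interferon-linked members with separate intervals, by 6.43 to 13.0 times, while the interval of PARP2 overlapped all 5. Induced, the order was PARP9, PARP10, PARP14, DTX3L, PARP12, PARP1 and PARP2. There, 0 of the 10 pairs of an interferon-linked and a repair member had separate intervals, and neighbours in either order overlapped throughout. The ratio of PARP14 to PARP1 was 0.156 uninduced and 2.54 induced.

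As a group the interferon-linked members summed to 38.6 FPKM uninduced and 399.9 FPKM induced, and the repair members to 88.7 and 54.3 FPKM. The first thus made up 30.3% of the 7-gene sum before and 88.0% after induction. Over all 17 PARP genes measured, PARP9, PARP10, PARP12 and PARP14 held 9.31% of the summed FPKM uninduced and 49.4% induced, while PARP1 held 19.9% and 4.80%. These sums and shares carry no bounds. They include PARP9 and PARP10, at 116 and 83.5 FPKM induced, whose intervals overlap between the columns. Among themselves the interferon-linked members spanned 4.79 to 9.68 FPKM uninduced, a factor of 2.02, and 45.2 to 116 FPKM induced, a factor of 2.56. Their log2 differences ranked between 46 and 116 among the 14319 rows. In the uninduced column their levels stood between the 28.3 and 41.7 percentiles of the kept rows, and in the induced column between 81.6 and 95.0.

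**Figure D2:**
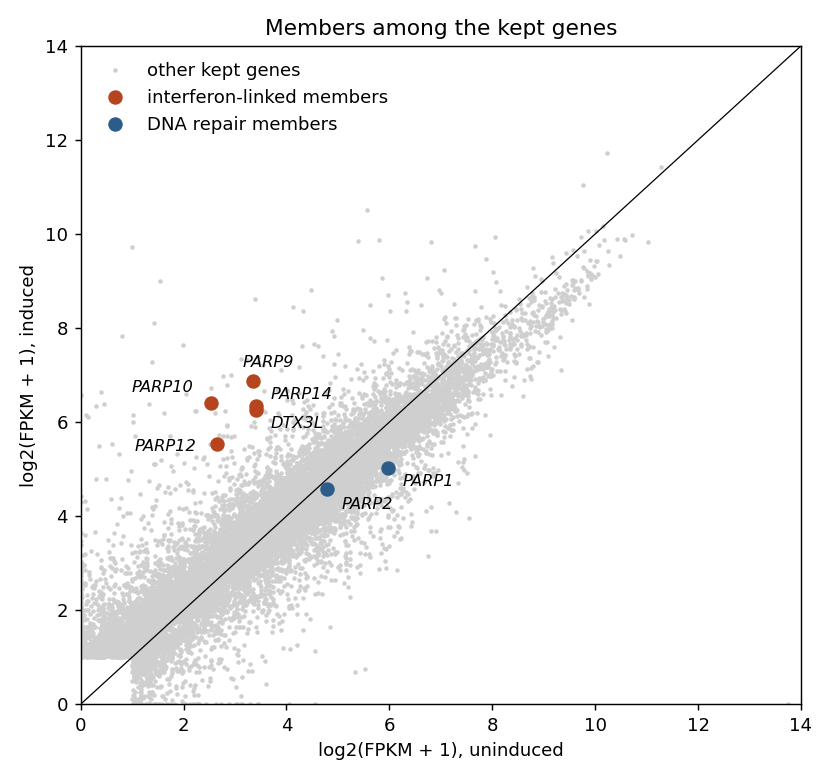
Induced against uninduced log2(FPKM + 1) for every kept gene symbol (grey points), with the diagonal of equal values. The 5 interferon-linked members (red) lie together above the diagonal, 2.86 to 3.87 log2 units from it, and PARP1 and PARP2 (blue) lie 0.96 and 0.21 below it.

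The bases around the start sites of the members were also examined. The interferon-linked members were grouped as known interferon-stimulated genes, so their motif counts are a description and no independent test. RefSeq promoter windows (GRCh38.p14, 250 bases before to 50 from the start) were matched for 6 of the 7 genes, PARP10 not among them. Windows were searched on both strands for the interferon-stimulated response element ISRE (GAAA, any 2 bases, GAAA), the STAT dimer site GAS (TTCNNNGAA), a forkhead site (TGTTTAC) and E2F sites (TTTCCCGC and TTTGGCGC). The windows of DTX3L, PARP14 and PARP12 are shown because each holds an ISRE match (capitals), and those of PARP1 and PARP2 as the repair genes without one. Each is 300 bases, written 5′ to 3′ on the strand of the gene.
DTX3L (chr3:122564088-122564387, strand plus): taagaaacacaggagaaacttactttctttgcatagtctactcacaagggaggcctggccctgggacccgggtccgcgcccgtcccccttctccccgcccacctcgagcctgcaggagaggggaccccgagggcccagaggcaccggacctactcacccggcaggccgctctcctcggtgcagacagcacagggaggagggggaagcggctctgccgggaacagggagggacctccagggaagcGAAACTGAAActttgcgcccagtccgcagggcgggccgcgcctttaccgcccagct
PARP14 (chr3:122680589-122680888, strand plus): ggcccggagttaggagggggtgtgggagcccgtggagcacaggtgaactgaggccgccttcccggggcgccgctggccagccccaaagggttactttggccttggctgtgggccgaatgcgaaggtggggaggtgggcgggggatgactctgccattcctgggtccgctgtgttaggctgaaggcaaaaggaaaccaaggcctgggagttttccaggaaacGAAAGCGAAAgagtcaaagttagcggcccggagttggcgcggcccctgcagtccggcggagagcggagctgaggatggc
PARP12 (chr7:140062902-140063201, strand minus): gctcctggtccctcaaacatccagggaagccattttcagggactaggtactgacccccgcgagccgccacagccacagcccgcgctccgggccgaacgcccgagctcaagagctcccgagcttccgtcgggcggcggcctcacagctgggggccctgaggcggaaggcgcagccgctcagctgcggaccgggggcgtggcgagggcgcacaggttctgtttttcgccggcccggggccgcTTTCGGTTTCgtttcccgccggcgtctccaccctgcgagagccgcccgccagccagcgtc
PARP1 (chr1:226408044-226408343, strand minus): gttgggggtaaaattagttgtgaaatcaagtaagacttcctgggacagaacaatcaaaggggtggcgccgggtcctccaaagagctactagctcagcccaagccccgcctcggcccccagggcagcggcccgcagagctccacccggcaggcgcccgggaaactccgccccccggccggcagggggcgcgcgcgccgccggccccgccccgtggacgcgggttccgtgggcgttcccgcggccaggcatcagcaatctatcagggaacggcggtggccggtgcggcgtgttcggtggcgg
PARP2 (chr14:20343385-20343684, strand plus): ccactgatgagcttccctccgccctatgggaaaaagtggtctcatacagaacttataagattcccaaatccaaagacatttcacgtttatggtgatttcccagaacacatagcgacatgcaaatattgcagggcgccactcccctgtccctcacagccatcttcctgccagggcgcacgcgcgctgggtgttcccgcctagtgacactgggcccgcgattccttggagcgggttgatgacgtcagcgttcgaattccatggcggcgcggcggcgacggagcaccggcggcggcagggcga

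The 4 interferon-linked genes with a window have 5 windows, and 4 of these held the ISRE letters, as did 3.57% of the 35116 windows in the RefSeq table. The letters were not particular to the members. Of the 104 rows that rose, 74 had a gene with a window, and the rest could not be checked. Among these 74 genes, PARP12, PARP14 and DTX3L included, 31 (41.9%) held the letters. Counted the same way, 4.18% of 9358 kept genes with a window held them, as did 2.27% of the 44 genes that fell. The matches of PARP9 and DTX3L are the same 10 bases, chr3:122564332-122564341, since these genes start back to back and their windows share 137 bases. Counted from the start site, that match lies at bases -41 to -32 for PARP9 and -6 to 4 for DTX3L. PARP9 has another window at a second start site, which held no ISRE letters. In PARP14 the match lies at bases -29 to -20, and a GAS match (ttccaggaa) lies just before it at -40 to -32. In PARP12 the match is on the other strand (TTTCGGTTTC) at bases -10 to -1, followed by an E2F match (tttcccgc) at 2 to 9. PARP1 held 0 matches of the 4 kinds, and PARP2 held a GAS match (ttcccagaa) at -154 to -146. Of all windows 7.66% held GAS letters, 3.42% the forkhead site and 2.27% E2F letters. None of the windows of these 6 genes held the forkhead letters, which are those bound by FOXA factors; that says only that these letters are not within these 300 bases. Among 9 other PARP genes with a window, 0 held ISRE letters and 2, PARP15 and ZC3HAV1, held GAS letters. A match is a description of the letters and no evidence of binding.

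PARP9, DTX3L and PARP14 lie in 1 block of chromosome 3, and the kept genes around them had log2 differences nearer to 0. Within 200 kb of the 3 genes, 8 other kept genes had log2 differences between -0.61 and 0.49, with a median of 0.13. None of them rose or fell, near the 1.18% of all rows. KPNA1, an importin gene, lies 13.0 kb from the shared PARP9 and DTX3L span and was at 57.7 FPKM uninduced (9.47 to 105.9) and 47.0 FPKM induced (7.45 to 86.5). HSPBAP1 lies 9.16 kb from PARP14 and was at 2.82 FPKM (0 to 5.69) and 3.81 FPKM (0.322 to 7.31). The other neighbours were CCDC58 (47.2 and 31.9 FPKM), FAM162A (28.6 and 31.7), WDR5B (4.39 and 4.91), DIRC2 (8.10 and 8.99) and the clone-named transcripts RP11-299J3.8 and RP11-67L2.2. PARP15, a further PARP gene between DTX3L and PARP14, was under the filter at 0.151 FPKM uninduced (0 to 0.595) and 0.140 FPKM induced (0 to 0.585).

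**Figure D3:**
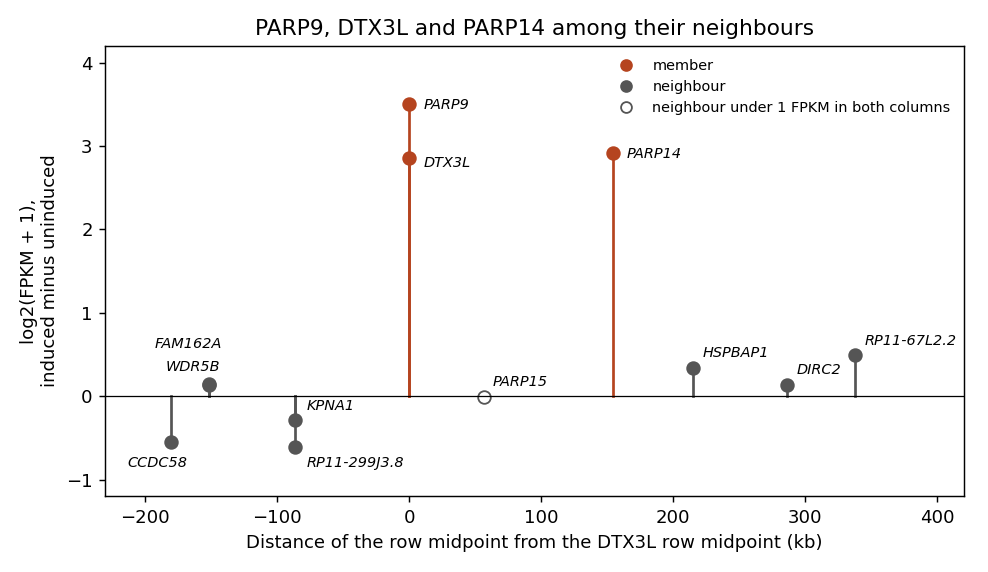
Log2 difference (induced minus uninduced) of genes around DTX3L, placed by the distance of their row midpoint from that of DTX3L in kb. PARP9, DTX3L and PARP14 (red) stand at 3.51, 2.86 and 2.92, the kept neighbours (grey) between -0.61 and 0.49, and PARP15 (open circle) near 0.

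The other PARP enzymes had smaller log2 differences than the interferon-linked members. The classes follow the choice of members, and the other enzymes were not sorted by whether they respond to interferon. Of 11 further family members 10 were kept, and 0 of the 10 rose or fell, by either criterion, beside 1.18% of all rows that rose or fell. All 10 were above 0, beside 53.7% of all rows, with a median log2 difference of 0.45 and a range of 0.14 to 1.29; 2 were at least 2-fold higher, beside 9.20% of all rows: PARP6 (13.9 and 35.5 FPKM) and TNKS, or tankyrase (9.77 and 21.0 FPKM). The most abundant were TIPARP, a target of the aryl hydrocarbon receptor, at 50.7 FPKM (21.2 to 80.3) and 62.4 FPKM (28.2 to 96.6), and PARP4, the vault PARP, at 34.6 FPKM (16.4 to 52.9) and 38.2 FPKM (17.7 to 58.7). ZC3HAV1, the antiviral zinc finger protein PARP13, was at 18.8 FPKM (7.19 to 30.4) and 29.6 FPKM (11.2 to 48.1). PARP3, which also acts at DNA breaks, was at 24.6 and 29.2 FPKM. Of the other Deltex ligases, DTX3 was at 13.7 FPKM (1.35 to 26.0) and 27.3 FPKM (6.82 to 47.8) and DTX2 at 7.30 and 6.61 FPKM, while DTX1 and DTX4 were under the filter.

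**Figure D4:**
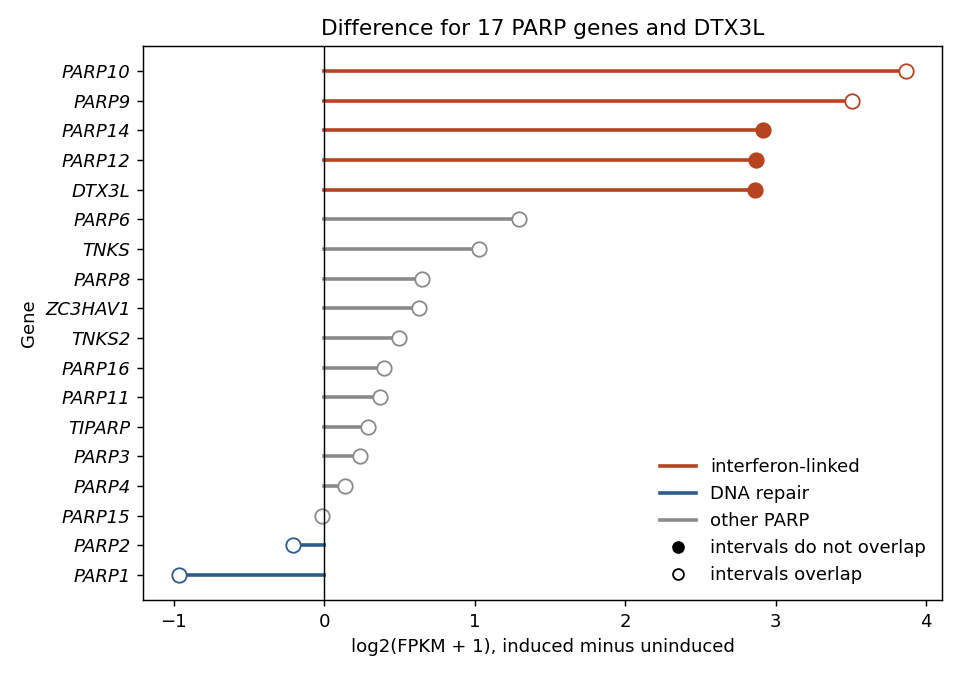
Log2 difference (induced minus uninduced) of 17 PARP genes and DTX3L, coloured by class, with filled circles where the deposited intervals do not overlap. The 5 interferon-linked genes stand at 2.86 or more, all other PARP genes at 1.29 or less, and PARP1 and PARP2 at -0.96 and -0.21.

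Of 11 enzymes that remove or break down ADP-ribose, 8 were kept, and ADPRH, ADPRHL1 and MACROD2 were under the filter in both columns. None of the 8 rose or fell, which is near the 1.18% of all rows. Their median log2 difference was 0.16, with 5 of 8 above 0, beside 53.7% of all rows. ENPP1, an ectoenzyme that cleaves nucleotides, was at 35.8 FPKM (14.0 to 57.7) and 99.5 FPKM (34.3 to 165), and NUDT5, an ADP-ribose hydrolase, at 67.2 and 50.5 FPKM. PARG, which degrades poly(ADP-ribose) chains, was at 10.1 FPKM (1.26 to 18.8) and 12.0 FPKM (3.03 to 20.9). For the supply and use of NAD, 0 of 9 kept genes rose or fell, again near the 1.18% of all rows. The median was 0.20, and -0.057 after quantile normalization. The largest difference was that of NNMT, which methylates nicotinamide, at 45.2 FPKM (4.33 to 86.1) and 15.7 FPKM (0 to 31.7). NAMPT, the rate-limiting enzyme of NAD salvage, was at 55.9 FPKM (7.41 to 104) and 81.8 FPKM (5.63 to 158), and NADK, the NAD kinase, at 34.8 and 33.9 FPKM.

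PARP1 and PARP2 work with the proteins of single-strand break and base excision repair, and these too had mostly lower values. Of 15 kept genes 12 were below 0, beside 46.3% of all rows, with a median of -0.56. None of the 15 rose or fell, which is near the 1.18% of all rows. APEX1, the abasic site endonuclease, was at 117 FPKM (45.9 to 188) and 71.6 FPKM (22.6 to 121), and C4orf27, the older symbol of the PARP1 cofactor HPF1, at 45.0 FPKM (15.2 to 74.8) and 31.9 FPKM (9.11 to 54.6). XRCC1, the scaffold recruited by poly(ADP-ribose), was at 36.4 and 32.9 FPKM. Genes of DNA replication, listed as a measure of cycling cells, were all 12 below 0, with a median of -1.58, and 9 were at least 2-fold lower, as were 6.03% of all rows. UHRF1, of maintenance DNA methylation, fell from 55.4 FPKM (26.0 to 84.8) to 10.5 FPKM (3.31 to 17.8). The other 11 had overlapping intervals, and 0.454% of all rows fell. The 12 replication genes summed to 1149 FPKM uninduced and 434 FPKM induced. The part of cycling cells in the PARP1 value was not tested, and less RNA per cell and fewer cells of a kind cannot be told apart in bulk RNA.

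On the side of the interferon-linked members, the interferon signal chain had a median of 0.68 over 8 kept genes, and 1 of them rose, beside 0.726% of all rows. The count was 2 by the looser criterion, beside 1.26% of all rows. It was also 2 with equal FPKM sums, where 123 of 14376 rows rose, and after quantile normalization, where 109 of 14306 rose. STAT2, which binds the ISRE in a complex with IRF9, rose from 31.1 FPKM (8.72 to 53.5) to 172 FPKM (65.7 to 279). IRF9, the DNA-binding subunit of that complex, was at 30.0 FPKM (0 to 72.2) and 123 FPKM (0.791 to 245), with overlapping intervals. The receptor chains IFNAR1 (36.0 and 42.4 FPKM) and IFNAR2 (14.1 and 17.1 FPKM) and the kinases JAK1 (43.1 and 41.7 FPKM) and TYK2 (40.5 and 36.7 FPKM) had log2 differences between -0.14 and 0.26.

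The genes most like each member were taken as the 2 with the smallest Euclidean distance over the 2 log2(FPKM + 1) values. For PARP14 they were DTX3L, at a distance of 0.07, and BTN3A1, a butyrophilin, at 0.13 (10.5 and 75.7 FPKM), and for DTX3L they were PARP14 and SAMD9L at 0.10 (9.73 and 70.7 FPKM). HELZ2, a helicase gene, was nearest to PARP9 at 0.08 (9.05 and 110.2 FPKM), followed by DDIT3, or CHOP, at 0.29. HERC6 was nearest to PARP10 at 0.21 (5.12 and 72.7 FPKM), followed by FOXA2 itself at 0.32. TMEM140 and DHX58, an RNA helicase of the RIG-I family, were nearest to PARP12, at 0.15 and 0.19. DAXX and RASA1 were nearest to PARP1 (0.05 and 0.06), and CNPPD1 and RPL23AP82 nearest to PARP2 (0.02 for both). The measure rests on 2 values per gene.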

How the data were processed

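RNA was taken up on RNeasy columns and made into unstranded TruSeq libraries for an Illumina HiSeq, per the labels' protocols, so reads of overlapping genes on opposite strands are not separated. Alignment with TopHat to hg19 comes from the submitters' processing notes; for versions, quantifier and filters nothing is stated. The deposited values are FPKM with lower and upper bounds, per the file headers, 1 column for each group of 2 samples. Whether a column combines both samples, and the level of the bounds, is unknown. A further 3 value columns match none of the samples and were not used.

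Columns were matched to groups by name. Rows at 1 FPKM or more in at least 1 column were kept, with a pseudocount of 1 for log2 values. A symbol on several rows was represented by its most highly expressed row. A gene was called where its intervals do not overlap; the 3 kept rows with malformed bounds were never called. The interval of a difference joins both upper half-widths as the root of their squared sum. Python 3.11.15 with pandas 2.3.3, numpy 2.4.6 and matplotlib 3.10.9 was used.

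Table starts are counted from 1, in hg19; promoter windows are GRCh38.p14, and the builds were not mixed. Neighbours are kept genes within 200 kb. Besides the members, the text names the called genes of each list (up to 4), or with none the 2 most abundant, the 2 genes nearest to each member, and the neighbours on chromosome 3; other list genes, FOXA2, GRINA, RPPH1 and the neighbours of the other members were named after their values were seen. Not every listed gene is reported here. The members and lists were chosen with earlier results of these data known. Alternatives covered the pseudocount, the filter, the scaling, the criterion and repeated symbols.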

Additional observations from a re-analysis of the deposited data

How the results depend on the processing

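Of the 7 alternatives, each left 3 of 5 interferon-linked members higher except the looser criterion, which made it 4, and each left 0 of 2 repair members lower. The 5 interferon-linked differences stayed between 2.82 and 4.09, PARP1 between -0.98 and -0.77 and PARP2 between -0.22 and -0.017. The gap between the class medians was 3.66 with a pseudocount of 0.1. By the looser criterion 180 rows (1.26%) were higher and 159 (1.11%) lower, and 5 of 12 replication genes were lower. In the interferon signal chain 2 of 8 genes were higher by that criterion, 2 with equal FPKM sums and 2 after quantile normalization. Over all rows, 123 of 14376 rose with equal sums and 109 of 14306 after quantile normalization. Equal sums moved the median of all kept rows from 0.05 to 0.23 and put DTX2 (0.048) and NADK (0.15) above 0. The interferon-linked median was then 3.11, and the repair median -0.39. The median of all kept rows was -0.027 after quantile normalization and -0.019 with a mean of at least 5 FPKM. The median of the NAD list was -0.057 after quantile normalization. Of 15 break repair genes 10 were below 0 with equal sums and 14 after quantile normalization. No paired analysis was possible because each group has a single column. The limma fit planned in case of values per library could not be run. Nor could a replicate block or omission of single libraries. Read depth is unknown, and the wide intervals limit what could be called.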

Other observations

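Around the other members, 3 kept genes lie within 200 kb of PARP12, and 2 of them were at least 2-fold higher with overlapping intervals, beside 9.20% of all rows. TBXAS1, thromboxane synthase, 3.42 kb from the PARP12 span, shares its span with HIPK2, a protein kinase, and was at 3.13 FPKM uninduced (0 to 15.0) and 25.5 FPKM induced (0 to 55.1), a log2 difference of 2.68. HIPK2 was at 8.93 FPKM (2.73 to 15.1) and 9.75 FPKM (2.16 to 17.3). KDM7A, a histone demethylase on the other side of PARP12, was at 0.349 FPKM (0 to 0.947) and 3.09 FPKM (0 to 7.39). Within the same distance of PARP10, 12 kept genes had log2 differences between -0.53 and 1.00, the highest being GRINA, which shares the PARP10 span. Near PARP1 the 2 kept genes were ACBD3 (42.6 and 50.5 FPKM) and LIN9 (8.57 and 4.93 FPKM), with overlapping intervals. Near PARP2, 10 kept genes had differences between -1.07 and 1.30, and 0 rose or fell, which is near the 1.18% of all rows.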
